A study of Mus musculus with 12 samples.

Results

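Amino acid transporters were followed as the genes whose symbol begins with Slc1a, Slc3a, Slc6a, Slc7a, Slc36a, Slc38a or Slc43a and a number. Of the 17097 genes measured, 58 met this rule, on 102 probe sets, and each gene was read from its brightest probe set over the 12 arrays. Slc6a19os and Slc36a1os meet the rule by name, but they are RNAs from the opposite strand and not carriers. The arrays were made with RNA of CT26 cells, a mouse colon carcinoma line, in 4 groups of 3 arrays each. Control cells (CTR) had 1.0 g/L glucose with 10% serum over 48 hours. Short-term starvation (STS) lowered these to 0.5 g/L and 1% for the same time. Oxaliplatin (OXP), which crosslinks DNA through platinum, was added to the OXP and STS+OXP groups 24 hours after STS. Whether this counts from the start of STS is not stated. The paper's legend for the cell experiments has 48 hours in either medium and then 24 hours of OXP. The labels give a dose of 10 µM, and the paper's legend for the cell experiments gives a higher one. All 4 groups share the line, and the labels name plain DMEM for the glucose step and DMEM/F12 for the serum step without giving the amino acid content of either. Whether the 3 arrays of each group stem from separate cultures is not stated, so that p-values measure the spread between arrays, which may be technical.

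Cells take up and exchange amino acids through carriers of several solute carrier families. In the Slc7 family the light chains, such as LAT1 (Slc7a5) and xCT (Slc7a11), reach the membrane bound to a heavy chain of the Slc3 family, above all 4F2hc (Slc3a2), whereas the cationic carriers, such as CAT1 (Slc7a1), work alone. Slc1a5 and Slc38a2 bring in glutamine and other small neutral amino acids, and Slc36a1 and Slc38a9 sit on the lysosome, where Slc38a9 reports arginine to the growth kinase mTORC1. When amino acids run short, the kinase Gcn2 (Eif2ak4) raises translation of the transcription factor ATF4, and Slc7a11, Slc7a5, Slc3a2, Slc7a1 and Slc38a2 are known targets of ATF4.

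Values are log2 signals after RMA, in which 1 unit is a doubling of the signal. They compare the same gene between groups, and signals of different genes are not amounts that can be compared. In RNA from whole cultures, fewer cells of a kind and less RNA per cell cannot be told apart. A change was called in limma where the p adjusted by Benjamini and Hochberg's method across the 17097 genes was below 0.05. Of the colon epithelial markers, Epcam (CTR mean 4.79) and Cdx2 (3.93) lay above background in every group and Krt8 in 3 groups, while Cdh1, Krt18, Krt19 and Vil1 were at background in all 4. Some markers of other cells lay above background too. The macrophage marker Cd68 did so only in OXP, with a mean of 4.41 against 2.94 in CTR, and the fibroblast marker Dcn only in OXP (4.18) and STS+OXP (4.02). Across the macrophage list 3 of 5 genes and across the fibroblast list 4 of 5 exceeded background in some group, and the CTR means ran from 2.60 to 3.71 and from 2.82 to 6.04. So did 3 of 4 T cell, 1 of 2 B cell and 1 of 4 endothelial markers, while Ptprc, Cd3g, Ms4a1 and Pecam1 were at background in all groups. The RNA came from a cell line, so that passing the background level is no proof that a gene is expressed. The part of these markers in the results was not tested.

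A pair of OXP arrays stood apart. On OXP replicate 1 the control probe sets for Gapdh gave 3.85 more at the 3′ than at the 5′ end, where the remaining arrays gave -0.12 to 0.28. The second OXP array was nearer to the STS+OXP arrays, at a root mean square distance of 0.143 to 0.204 per gene, than to its own group, at 0.345 and 0.251. OXP replicate 3 was no nearer to its own group (0.297 and 0.251) than to the STS+OXP arrays (0.237 to 0.251), and OXP replicate 1 was about as far from its own group (0.345 and 0.297) as from STS+OXP (0.334 to 0.356). The labels were kept as given, but whether that of OXP replicate 2 is right is in doubt and was not tested, which bears on every OXP mean and on STS+OXP against OXP. The changes of the named genes in OXP are given with all arrays and then without OXP replicate 1 and without OXP replicate 2. Precision is limited by the number of arrays.

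Of the 58 genes, 23 exceeded background in at least 1 group, which is 39.7% against 61.5% of all genes. Background was set at the highest of 22 control probe sets without a mouse target, averaged over the arrays of a group, which gave 3.66 for CTR, 3.47 for STS, 3.42 for OXP and 3.59 for STS+OXP. The 2 Slc3 heavy chains were above it, as were 7 of 9 Slc38 genes and 2 of 3 Slc43 genes. Only 4 of 15 Slc7 genes (Slc7a1, Slc7a4, Slc7a5 and Slc7a6), 6 of 19 Slc6 genes (Slc6a2, Slc6a6, Slc6a7, Slc6a8, Slc6a9 and Slc6a17), 1 of 6 Slc1 genes (Slc1a5) and 1 of 4 Slc36 genes (Slc36a1) were. Slc6a7, a proline carrier, exceeded background in OXP alone and barely (mean 3.431 against 3.42), and the other 22 did so in all 4 groups. This level is a lenient one. Only 13 of the 58 genes exceeded a further control set, that of 25 G or C bases, in a group (22.4% against 40% of all genes).

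The remaining 35 genes were at background in all groups, with group means from 2.27 to 3.52. They comprised the glutamate carriers Slc1a1, Slc1a2, Slc1a3, Slc1a6 and Slc1a7, the cationic and neutral carriers and light chains Slc7a2, Slc7a3, Slc7a7, Slc7a8, Slc7a9, Slc7a10, Slc7a11, Slc7a12, Slc7a13, Slc7a14 and Slc7a15, and Slc38a4, Slc38a5 and Slc43a3. The others were Slc36a2, Slc36a3 and Slc36a1os, the monoamine carriers Slc6a3 and Slc6a4, and Slc6a5, Slc6a12, Slc6a13, Slc6a14, Slc6a15, Slc6a18, Slc6a19, Slc6a19os, Slc6a20a, Slc6a20b and Slc6a21. A signal at background is a bound and not a measure of absence. Leaving Slc7a11 aside, the other 34 had log2 fold changes against CTR between -0.30 and 0.19, none of them called (lowest adjusted p = 0.131).

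**Figure D1:**
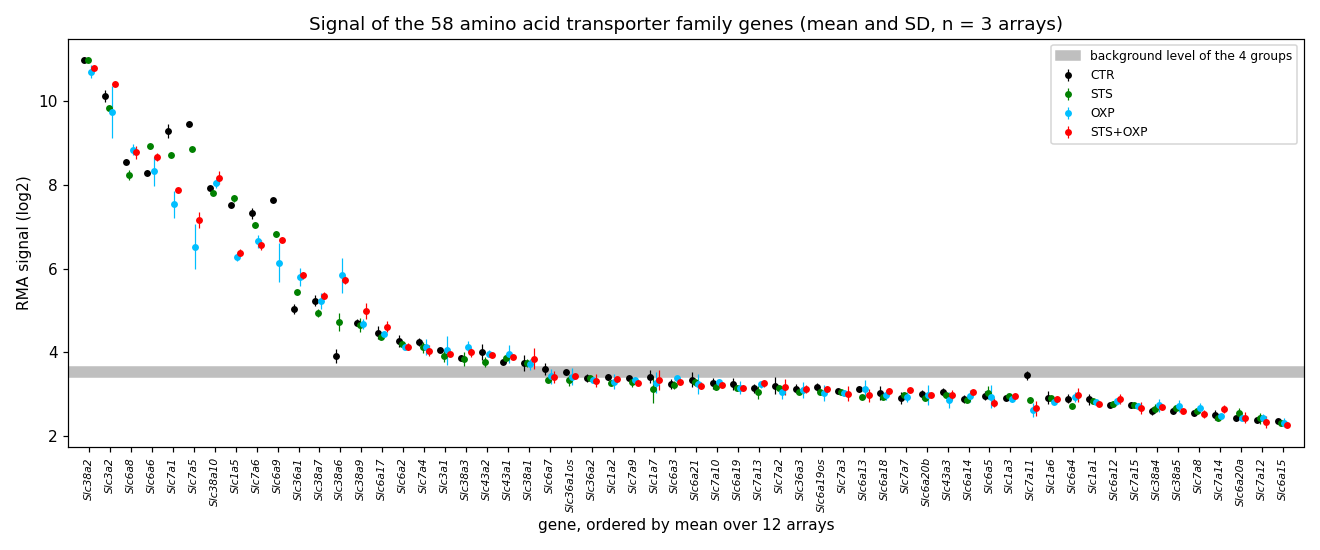
Mean log2 signal and SD (n = 3 arrays) of the 58 genes drawn in black for CTR, in green for STS, in light blue for OXP and in red for STS+OXP, ordered by the mean over 12 arrays, with the range of the 4 background levels in grey. Most genes lie in or below the grey band and show little spread between groups, and signals of different genes are not comparable as amounts.

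Relative to CTR, 3 of the 58 genes were higher and 5 lower in STS-treated cells, where 16.5% of all genes were called (9.75% higher and 6.74% lower). In OXP-treated cells 3 were higher and 7 lower, with 31.4% of all genes called (17.5% higher and 13.9% lower). In STS+OXP-treated cells 3 were higher and 6 lower, with 30.6% of all genes called (16.4% higher and 14.2% lower). The share of the 58 that was called was 13.8%, 17.2% and 15.5% in turn, with most of the 58 at background. Among genes above background in a group, the share was 30.4% of the 23 transporter genes against 25.8% of all genes in STS, 39.1% against 48.8% in OXP and 34.8% against 47.9% in STS+OXP, so that the order in STS depended on which genes were counted. The median log2 fold change of the 58 was -0.06 for STS, -0.03 for OXP and -0.03 for STS+OXP, beside -0.03, -0.01 and 0.00045 over all genes. The arrays of the treated and the CTR group did not overlap for 22 of the 58 genes in STS (37.4% of all genes), 12 in OXP (38.1%) and 22 in STS+OXP (44.1%). The 3 comparisons share the CTR arrays.

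In all, 11 of the 58 genes were called against CTR in at least 1 comparison, and 10 of these lay above background. Slc6a9, Slc7a1 and Slc7a5 were lower in all 3 treated groups, and Slc1a5 and Slc7a6 in the groups given OXP. Slc36a1 and Slc38a6 were higher in all 3, and Slc6a6 in both STS groups. Slc6a8 was lower in STS and higher in OXP, and Slc38a2 was lower in OXP only. The eleventh, Slc7a11, lay at background.

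**Figure D2:**
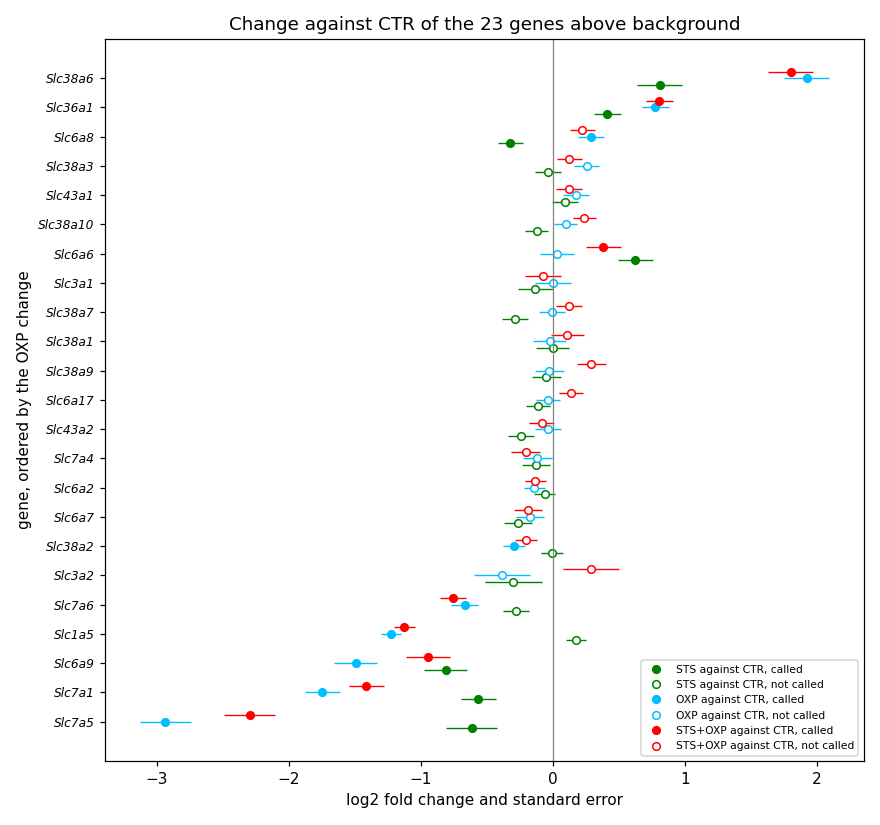
Log2 fold change and standard error against CTR of the 23 genes above background, with STS in green, OXP in light blue and STS+OXP in red; filled points were called in limma. In the groups given OXP, Slc7a5, Slc7a1, Slc6a9, Slc1a5 and Slc7a6 lie to the left and Slc38a6 and Slc36a1 to the right, while most others lie near 0. In STS, Slc1a5 (0.17) and Slc7a6 (-0.28) were not called.

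Slc7a5, the light chain LAT1 that brings in leucine and other large neutral amino acids, had the largest change of the 58 genes. It lies on chromosome 8 of GRCm38.p6 from 121881146 to 121907686. Its signal was 9.48, 9.40 and 9.50 on the CTR arrays and 8.90, 8.80 and 8.83 on the STS arrays. It was 6.45, 7.09 and 6.03 on the OXP arrays and 6.98, 7.37 and 7.14 on the STS+OXP arrays. CTR, STS and the OXP-treated groups did not overlap, and OXP replicate 2 lay among the STS+OXP arrays. Slc7a5 fell by 2.94 on the log2 scale in OXP (standard error 0.192, adjusted p = 5.55e-08) and fell by 2.29 in STS+OXP. In OXP the change was -2.90 without OXP replicate 1 and -3.22 without OXP replicate 2. The fall of 0.61 in STS was called narrowly (log2 fold change -0.61, adjusted p = 0.0443). That call was lost when any array of CTR, STS or STS+OXP was left out (adjusted p up to 0.12), and the adjusted p was 0.00168 without OXP replicate 2.

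Slc7a6, the light chain y+LAT2 that exchanges arginine for glutamine, moved the same way but less. It gave 7.42, 7.37 and 7.16 in CTR, 7.04, 7.12 and 6.96 in STS, 6.82, 6.63 and 6.51 in OXP, and 6.66, 6.42 and 6.61 in STS+OXP. Every array given OXP lay below every array without it. Slc7a6 fell by 0.67 in OXP (standard error 0.0993, adjusted p = 0.000119) and fell by 0.75 in STS+OXP (adjusted p = 4.14e-05). In OXP the change was -0.75 without replicate 1 of that group and -0.66 without replicate 2. In STS the log2 fold change was -0.28 (adjusted p = 0.0768).

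Slc3a2, the heavy chain that LAT1 and y+LAT2 bind, was not called in any of the 6 comparisons with all 12 arrays. Its signal was 10.29, 10.03 and 10.04 in CTR, 9.89, 9.78 and 9.80 in STS, and 10.35, 10.45 and 10.43 in STS+OXP. On the OXP arrays it was 9.36, 10.45 and 9.39. OXP replicates 1 and 3 thus lay below every array of the other groups, and replicate 2 was level with the highest STS+OXP array. The log2 fold change in OXP was -0.39 with all arrays (standard error 0.214, adjusted p = 0.213), -0.20 without OXP replicate 1 (adjusted p = 0.527) and -0.75 without OXP replicate 2 (standard error 0.0898, adjusted p = 2.19e-05). Without that array Slc3a2 was also called in STS (-0.30, adjusted p = 0.0191) and in STS+OXP (0.29, adjusted p = 0.0127). Neither comparison holds an OXP array, and both log2 fold changes were the same with and without it. Only the standard error, which pools the spread of all groups, fell from 0.214 to 0.0803. The other heavy chain, Slc3a1, which serves the kidney carrier of cystine, had group means from 3.92 to 4.05 and no call.

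Slc7a11, the light chain xCT that takes up cystine in exchange for glutamate, gave 3.59, 3.37 and 3.40 in CTR, below the background level of 3.66. It gave 2.83, 2.84 and 2.94 in STS, 2.70, 2.43 and 2.72 in OXP, and 2.49, 2.85 and 2.67 in STS+OXP. The CTR arrays lay above all others. It was called lower in STS (adjusted p = 0.00168), OXP (adjusted p = 2.78e-05) and STS+OXP (adjusted p = 4.92e-05), but no fold is given since both sides of each comparison were at background. The OXP call was also made without OXP replicate 1 and without OXP replicate 2. The group means of its other probe set, between 2.63 and 3.03, were highest in CTR as well.

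Slc7a1, the cationic carrier CAT1 for arginine and lysine, lies on chromosome 5 from 148327410 to 148399904. Its signal was 9.40, 9.08 and 9.37 in CTR and 8.77, 8.66 and 8.74 in STS. In OXP it was 7.45, 7.89 and 7.27, and in STS+OXP 7.82, 7.92 and 7.88. The groups separated in the order CTR, STS and the groups given OXP, and OXP replicate 2 again lay among the STS+OXP arrays. Slc7a1 fell by 0.56 in STS (standard error 0.133, adjusted p = 0.00989), fell by 1.75 in OXP (adjusted p = 2.45e-07) and fell by 1.41 in STS+OXP (adjusted p = 1.80e-06). The change in OXP was -1.70 without OXP replicate 1 and -1.92 without OXP replicate 2. The call in STS was lost without CTR replicate 1 (adjusted p = 0.051). A second bright probe set differed from CTR by -0.59, -2.28 and -1.81 in the same order. Slc7a4, a relative without known transport of its own, had group means from 4.04 to 4.25 and no call, and the other 3 cationic carriers were at background.

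Slc1a5, the neutral exchanger ASCT2, gave 7.47 to 7.54 in CTR, 7.59 to 7.73 in STS, 6.22 to 6.40 in OXP and 6.29 to 6.48 in STS+OXP, so that the arrays given OXP lay apart from the rest. The fall of 1.23 in OXP (adjusted p = 3.97e-08) and the one of STS+OXP (log2 fold change -1.12, adjusted p = 9.07e-08) were called in limma without each of the 12 arrays, the first being -1.20 without OXP replicate 1 and -1.28 without OXP replicate 2. In STS the brighter probe set differed from CTR by 0.17 (adjusted p = 0.165) and the dimmer one by -0.60, so that the probe sets differed in direction there.

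Slc38a2, the carrier SNAT2 of system A, gave 10.93, 11.03 and 11.01 in CTR, 10.99, 10.92 and 11.03 in STS, 10.62, 10.88 and 10.59 in OXP and 10.86, 10.72 and 10.77 in STS+OXP. The arrays given OXP all lay below the others. The log2 fold change in OXP was -0.29 (standard error 0.0837, adjusted p = 0.0156), and the call was lost without CTR replicate 2, CTR replicate 3 or OXP replicate 3 (adjusted p up to 0.064). It was -0.25 without OXP replicate 1 and -0.38 without OXP replicate 2. Its other probe sets differed by 0.13 and 0.11 in OXP, and with all probe sets averaged the change was -0.02 (adjusted p = 0.898), so that the direction depended on the probe set. Slc38a1, another carrier of system A, had group means from 3.72 to 3.85 and no call, and Slc38a3, of system N, from 3.84 to 4.13 and no call.

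Slc6a9, the glycine carrier GLYT1, lies on chromosome 4 from 117835258 to 117869305. It gave 7.66, 7.63 and 7.61 in CTR, 6.91, 6.78 and 6.77 in STS, 5.83, 6.68 and 5.91 in OXP and 6.62, 6.72 and 6.72 in STS+OXP. All treated arrays lay below CTR, and OXP replicates 1 and 3 lay below all others. Slc6a9 fell by 0.81 in STS (standard error 0.163, adjusted p = 0.00353), fell by 1.49 in OXP (adjusted p = 7.23e-06) and fell by 0.95 in STS+OXP (adjusted p = 0.000427). In OXP the change was -1.34 without replicate 1 of the group and -1.76 without replicate 2. A dimmer probe set differed by -0.28, -0.47 and -0.27.

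Slc6a6, the taurine carrier, went the other way. It gave 8.31, 8.32 and 8.23 in CTR, 8.97, 8.85 and 8.92 in STS, 7.98, 8.68 and 8.30 in OXP and 8.65, 8.77 and 8.58 in STS+OXP. All arrays of STS and STS+OXP lay above CTR, whereas the OXP arrays straddled it. Slc6a6 rose by 0.62 in STS (standard error 0.131, adjusted p = 0.0048) and by 0.38 in STS+OXP (adjusted p = 0.0418). In OXP the log2 fold change was 0.03 with all arrays, 0.20 without replicate 1 and -0.15 without replicate 2, and was called in none of these. A second bright probe set differed from CTR by 0.45 in STS, -0.48 in OXP, where replicate 1 gave 6.04, and 0.16 in STS+OXP. With all probe sets averaged, among them dimmer ones with CTR means of 4.28 and 2.74, neither rise was called (adjusted p = 0.131 and 0.345 in limma). The call in STS+OXP held when OXP replicate 1 or 2 was left out but was lost without any other array (adjusted p up to 0.141).

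Slc6a8, the creatine carrier, gave 8.62, 8.53 and 8.51 in CTR, 8.38, 8.18 and 8.14 in STS, 8.97, 8.72 and 8.83 in OXP and 8.65, 8.94 and 8.73 in STS+OXP. The STS arrays were the lowest and the arrays given OXP the highest. Its log2 fold change was -0.32 in STS (standard error 0.0953, adjusted p = 0.0347) and 0.29 in OXP (adjusted p = 0.0331). The call in STS was lost without any 1 CTR array, STS replicate 2 or STS replicate 3 (adjusted p up to 0.143). The call in OXP was lost without OXP replicate 1, the array with the large 3′ to 5′ difference (adjusted p = 0.108), and also without CTR replicate 2, CTR replicate 3 or OXP replicate 3. It held without OXP replicate 2 (0.35, adjusted p = 0.0179). A second probe set differed from CTR by -0.42 in STS and 0.42 in OXP. With both probe sets averaged the change in OXP was 0.35 (adjusted p = 0.00238 in limma).

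**Figure D3:**
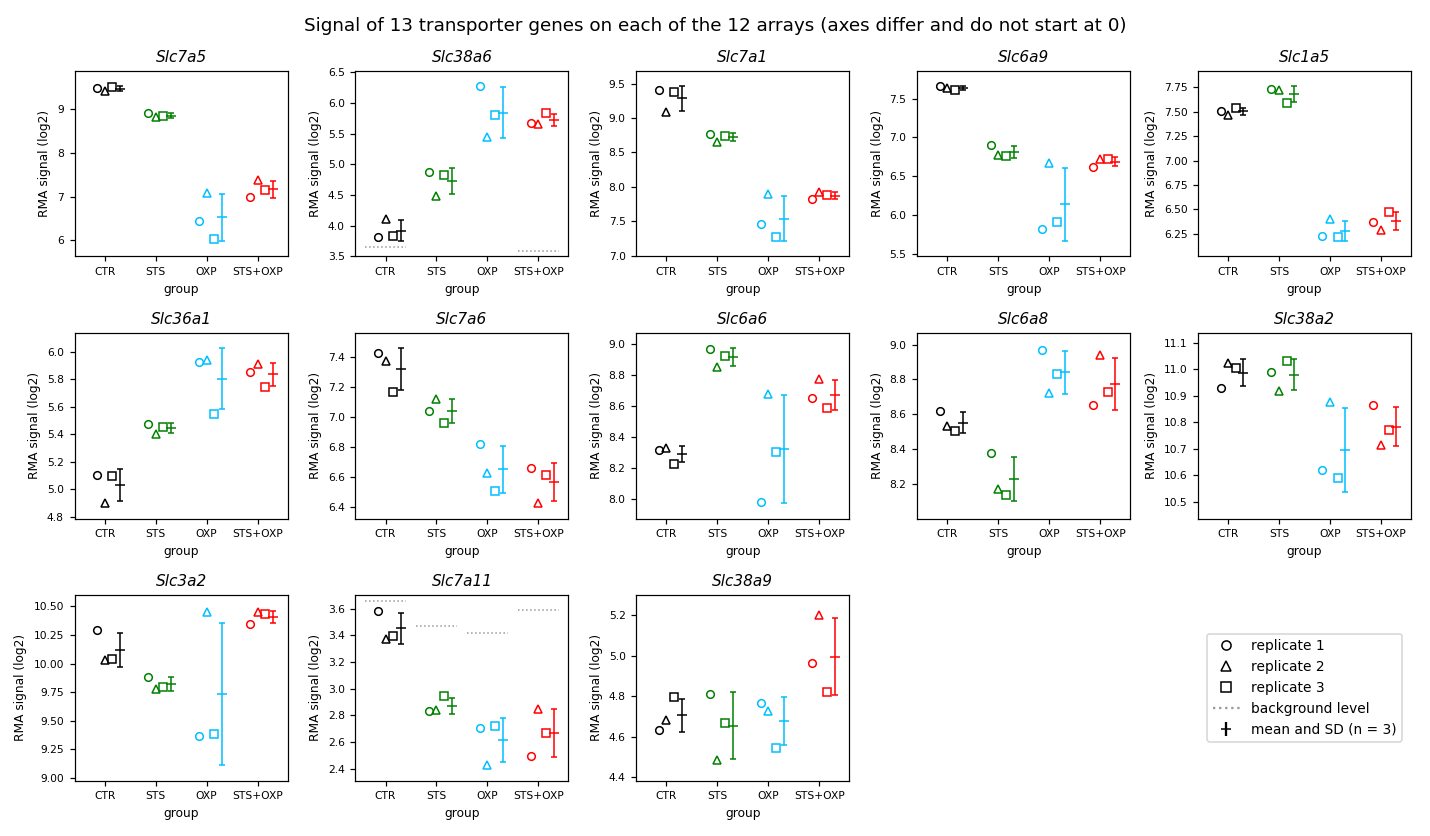
Log2 signal of 13 genes on each of the 12 arrays, with the mean and SD of each group (n = 3) and the background level as a dotted line where it falls within the axis; axes differ between panels. OXP replicate 2 (light blue triangle) sits level with the STS+OXP arrays for Slc3a2, Slc6a9, Slc7a1 and Slc7a5, and Slc7a11 stays under the dotted lines.

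Of Slc36a1 and Slc38a9, the members introduced above as lysosomal, Slc36a1 rose in all treated groups. This carrier, PAT1, moves small amino acids together with protons. Its signal was 5.10, 4.90 and 5.10 in CTR, 5.48, 5.40 and 5.46 in STS, 5.93, 5.94 and 5.55 in OXP and 5.85, 5.91 and 5.75 in STS+OXP. All treated arrays lay above CTR, and those given OXP above STS. Slc36a1 rose by 0.41 in STS (standard error 0.102, adjusted p = 0.0131), by 0.77 in OXP (adjusted p = 4.28e-05) and by 0.80 in STS+OXP (adjusted p = 2.94e-05). The rise in OXP was 0.71 without OXP replicate 1 and 0.71 without OXP replicate 2. The call in STS was lost without CTR replicate 2 or STS replicate 1 (adjusted p up to 0.0557). The gene lies on chromosome 11 from 55204322 to 55236330.

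Slc38a9, the arginine sensor of the lysosome, had a group mean of 4.71 for CTR, 4.66 for STS, 4.68 for OXP and 5.00 for STS+OXP. On the STS+OXP arrays it gave 4.97, 5.20 and 4.82, all above the other 9 arrays. No change against CTR was called, and that in OXP was -0.03 with all arrays, -0.07 without OXP replicate 1 and -0.05 without OXP replicate 2. Its other probe sets differed from CTR by 0.74, 0.37 and -0.04 in OXP. With all probe sets averaged the change in OXP was 0.26 (adjusted p = 0.0649 in limma). The difference of STS+OXP from OXP then went from 0.32 to -0.07, so that the direction depended on the probe set. STS+OXP exceeded STS by 0.34 (standard error 0.109, adjusted p = 0.0388), and with all probe sets averaged this was not called (0.24, adjusted p = 0.109). The call was also lost without CTR replicate 2, STS replicate 2 or 3, or STS+OXP replicate 1 or 2 (adjusted p up to 0.174).

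Slc38a6, a member of the glutamine carrier family known from neurons, had the largest rise. It lies on chromosome 12 from 73286739 to 73361998. It gave 3.82, 4.12 and 3.83 in CTR, just above background, 4.87, 4.49 and 4.83 in STS, 6.27, 5.45 and 5.80 in OXP and 5.67, 5.66 and 5.84 in STS+OXP. CTR, STS and the groups given OXP did not overlap. It rose by 0.81 in STS (standard error 0.171, adjusted p = 0.00489), by 1.92 in OXP (adjusted p = 1.04e-06) and by 1.80 in STS+OXP (adjusted p = 1.90e-06). The rise in OXP was 1.71 without OXP replicate 1 and 2.12 without OXP replicate 2. A second probe set was at background in all groups, with means from 2.90 to 3.25.

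Of the 23 genes above background, 13 were not called against CTR. Besides Slc3a2 and Slc38a9 these were Slc3a1, Slc6a2, Slc6a7, Slc6a17, Slc7a4, Slc38a1, Slc38a3, Slc38a7, Slc38a10, Slc43a1 and Slc43a2, with log2 fold changes between -0.28 and 0.26 (lowest adjusted p = 0.0529). Slc43a1 (LAT3) and Slc43a2 (LAT4), which release large neutral amino acids without a heavy chain, had group means from 3.77 to 4.01.

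Between STS+OXP and STS, 6 of the 58 genes were higher and 4 lower, beside 22% of all genes (10.8% higher and 11.2% lower), and the arrays of 25 did not overlap (42% of all genes). Slc7a5 was lower by 1.68 on the log2 scale (log2 fold change -1.68, adjusted p = 2.09e-05), Slc1a5 by 1.30 (-1.30), Slc7a1 by 0.85 (-0.85) and Slc7a6 by 0.47 (-0.47). Slc38a6 was higher by 0.99 (adjusted p = 0.000689), Slc6a8 by 0.54 and Slc36a1 by 0.39. Slc38a7 (0.41, adjusted p = 0.00885), Slc38a10 (0.36, adjusted p = 0.00778) and Slc38a9 were the others.

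Between STS+OXP and OXP none of the 58 genes was called in limma with all 12 arrays, where 0.0117% of all genes were (0.00585% higher and 0.00585% lower). At an unadjusted p under 0.05, 6 of the 58 passed, and the arrays of 6 did not overlap (12.4% of all genes). Without OXP replicate 2, 5 genes were higher in STS+OXP and none lower, beside 6.82% of all genes. The log2 differences were 1.04 for Slc3a2 (standard error 0.0898, adjusted p = 2.26e-05), 0.92 for Slc7a5 (adjusted p = 0.000707), 0.82 for Slc6a9 (adjusted p = 3.92e-05), 0.53 for Slc6a6 (adjusted p = 0.0065) and 0.51 for Slc7a1 (adjusted p = 0.00892). All 5 had OXP replicate 2 within the range of the STS+OXP arrays, and none had OXP replicate 1 or 3 there. That array was singled out because it lay near the STS+OXP arrays, so leaving it out favours a difference by choice. These calls therefore cannot test that difference, and the same applies to the interaction without that array. Of the 23 genes above background, 12 had OXP replicate 2 within the range of the STS+OXP arrays, 7 had OXP replicate 1 and 6 OXP replicate 3. Leaving out OXP replicates 1 and 2 together leaves 1 OXP array, whose spread is taken from the other groups, so that no calls are given. The log2 difference of Slc3a2 was then 1.025.

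The interaction compares the STS effect among cells given OXP with that among cells without it, as the first minus the second. It was called higher for 4 and lower for 1 of the 58 genes, beside 8.29% of all genes (2.53% higher and 5.76% lower). Slc6a9 was lower in STS than in CTR by 0.81 and differed by 0.55 between STS+OXP and OXP, an interaction of 1.36 (standard error 0.231, adjusted p = 0.00235). Slc7a5 had an interaction of 1.26 (standard error 0.272, adjusted p = 0.0112) and Slc7a1 one of 0.90 (standard error 0.188, adjusted p = 0.00932). These 3 were called without each of the 12 arrays in turn. Slc38a6, which rose in STS and differed by -0.12 between STS+OXP and OXP, had an interaction of -0.93 (adjusted p = 0.0308), a call that held without CTR replicate 2, STS replicate 2 or any 1 OXP array and was lost without each of the other 7 arrays (adjusted p up to 0.0854). Slc7a11, at background, was the fifth. The interaction of Slc3a2 was 0.98 with all arrays (standard error 0.302, adjusted p = 0.0682) and 1.33 without OXP replicate 2 (standard error 0.12, adjusted p = 1.17e-05).

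**Figure D4:**
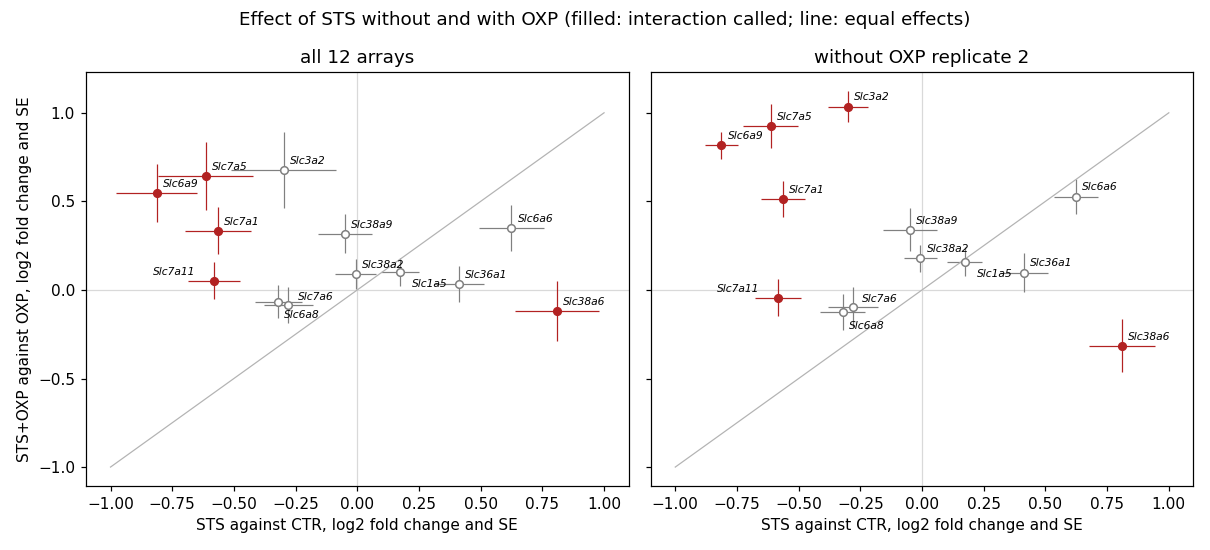
Log2 fold change and standard error of STS+OXP against OXP (vertical axis) over that of STS against CTR (horizontal axis) for 13 genes, with all 12 arrays (left) and without OXP replicate 2 (right); filled points have a called interaction and the line marks equal effects. Slc6a9, Slc7a5 and Slc7a1 lie to the left of 0 and above it in both panels, and Slc3a2 joins the filled points on the right; Slc7a11 is at background in all groups.

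Most genes of the amino acid response were lower in the treated groups. This list holds 16 genes, among them Atf4, its targets Asns, Trib3 and Chac1, and enzymes of serine synthesis. In STS 13 were lower and 1, the kinase gene Eif2ak4, was higher. In OXP 10 were lower and 2 higher, and in STS+OXP 9 were lower and 2 higher. Over all genes the lower share was 6.74% for STS, 13.9% for OXP and 14.2% for STS+OXP. The genes higher in both were Vldlr, a lipoprotein receptor, and Sesn2, an inhibitor of mTORC1 signalling. Both were lower in STS, where Vldlr differed by -1.12 and Sesn2 by -0.82, against 1.23 and 0.35 in OXP (1.11 and 0.42 without OXP replicate 1, 1.49 and 0.34 without OXP replicate 2). The median log2 fold change was -0.74 for STS, -1.21 for OXP and -0.79 for STS+OXP. Trib3, a pseudokinase, gave 8.39, 8.17 and 8.26 in CTR, 5.84, 5.82 and 5.81 in STS, 4.70, 5.56 and 4.98 in OXP and 5.59, 5.72 and 5.71 in STS+OXP. It fell by 2.45 in STS (adjusted p = 2.14e-07) and fell by 3.19 in OXP (adjusted p = 4.11e-09), where the change was -3.00 without OXP replicate 1 and -3.43 without OXP replicate 2. Chac1, which degrades glutathione, fell by 1.48 in STS and fell by 2.15 in OXP (-2.08 without OXP replicate 1 and -2.41 without OXP replicate 2). Atf5, a transcription factor, fell by 2.14 in OXP (adjusted p = 0.000973), and its OXP arrays were far apart at 5.32, 7.82 and 6.78. Its change in OXP was -1.48 without OXP replicate 1 and -2.73 without OXP replicate 2.

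The interaction was called higher for 12 of these 16 genes and lower for none, beside 2.53% and 5.76% of all genes. Between STS+OXP and OXP none was called with all arrays (8 at an unadjusted p under 0.05), and without OXP replicate 2, 7 were higher and 1 lower, when 6.82% of all genes were called. The median of the list relative to the CTR mean was -1.21, -0.80 and -1.45 on OXP replicates 1, 2 and 3 and lay between -0.93 and -0.71 on the STS+OXP arrays, so that OXP replicate 2 was again level with STS+OXP.

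**Figure D5:**
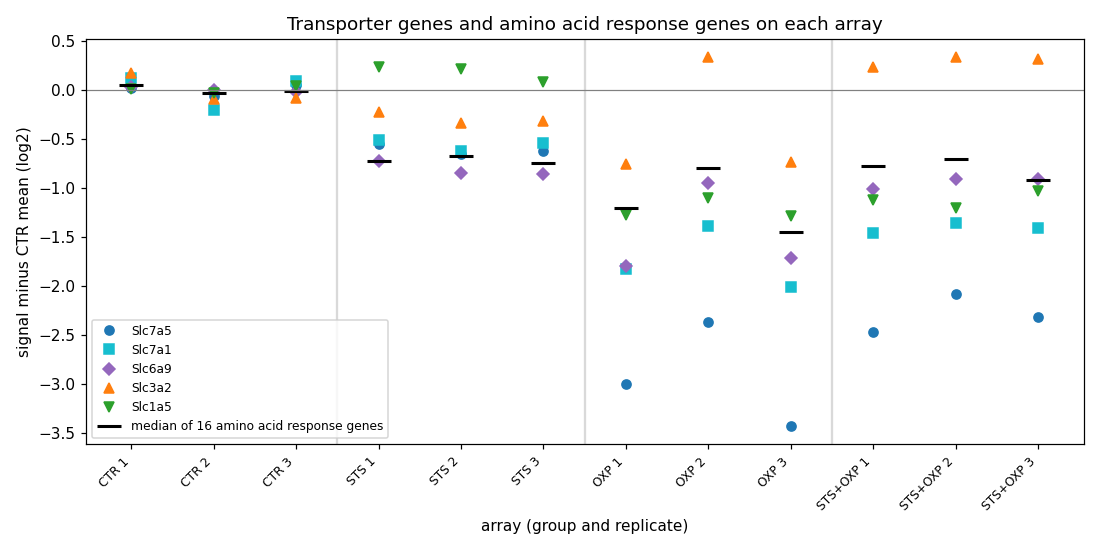
Difference from the CTR mean (log2) of 5 transporter genes and of the median of 16 amino acid response genes (black bar) on each array, by group and replicate. Slc7a5, Slc7a1, Slc6a9 and the black bar are lower on OXP replicates 1 and 3 than on OXP replicate 2 and the STS+OXP arrays, and Slc3a2 (orange) is above 0 on OXP replicate 2 as on the STS+OXP arrays.

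Most of the 20 measured genes of amino acid sensing upstream of mTORC1 were higher in the groups given OXP. The list mixes inhibitors of mTORC1 signalling, such as Sesn2 and Sesn3, with activators such as Rheb. Its counts therefore give no direction of signalling, and Sesn2 is also counted in the amino acid response list. Of the 20 genes, 6 were higher and 1 lower in STS, and 12 were higher and 1 lower in each of OXP and STS+OXP. Over all genes the higher share was 9.75% for STS, 17.5% for OXP and 16.4% for STS+OXP. The median log2 fold changes of the list were 0.11, 0.38 and 0.45. Sesn3, an inhibitor of mTORC1 signalling like Sesn2, rose by 1.60 in STS (adjusted p = 3.35e-06), by 1.65 in OXP and by 1.68 in STS+OXP. Flcn, the folliculin that acts on the Rag GTPases, rose by 0.74 in OXP (adjusted p = 5.08e-06) and by 0.62 in STS+OXP. Lamtor4, a subunit of the complex that anchors the Rag GTPases, rose by 0.31, 0.72 and 0.74 in STS, OXP and STS+OXP. The changes of Sesn3, Flcn and Lamtor4 in OXP were 1.57, 0.71 and 0.80 without OXP replicate 1 and 1.60, 0.72 and 0.66 without OXP replicate 2. Each was called in both. The lower gene was Sesn2 in STS and Rheb, the GTPase that activates mTORC1, in the other groups (-0.24 in OXP, -0.25 without OXP replicate 1 and -0.29 without OXP replicate 2).

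Of 20 amino acid carriers of other families, none was higher and 1 lower in STS, 4 were higher and 2 lower in OXP, and 3 were higher and 3 lower in STS+OXP. The called share of this list, at most 6 of 20, was no larger than that of all genes (16.5%, 31.4% and 30.6%). The largest rises were those of 3 exporters of the lysosome. Ctns, which releases cystine, rose by 1.05 in OXP (standard error 0.197, adjusted p = 0.000848) and by 0.80 in STS+OXP (adjusted p = 0.00614). Its CTR arrays were uneven at 4.52, 4.50 and 3.64, the last at background, which adds to the size of both rises. All arrays given OXP lay above the CTR arrays. Slc17a5, which releases sialic acid, gave 4.80, 5.43 and 4.96 in CTR, 5.42, 5.32 and 5.43 in STS, 6.25, 6.01 and 5.91 in OXP and 6.08, 5.90 and 6.10 in STS+OXP. The arrays given OXP lay above all others. It rose by 0.99 in OXP (adjusted p = 6.72e-05) and by 0.96 in STS+OXP. Slc66a1, which releases cationic amino acids, rose by 0.77 in OXP (adjusted p = 0.0005) and by 0.68 in STS+OXP. The rises of Ctns, Slc17a5 and Slc66a1 in OXP were 0.92, 0.89 and 0.70 without OXP replicate 1 and 1.11, 1.01 and 0.77 without OXP replicate 2, each called. In STS their log2 fold changes were 0.24, 0.32 and -0.01, and none was called. Slc25a13, the mitochondrial aspartate and glutamate carrier, fell by 0.43 in OXP and fell by 0.70 in STS+OXP. In OXP it was -0.61 without OXP replicate 1, and the call was lost without OXP replicate 2 (-0.39, adjusted p = 0.0532).

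Promoter windows from RefSeq (GRCm38.p6, 250 bases before to 50 after an annotated start) were given for 41 of the 58 genes. The motif TGATGNAA, the core bound by C/EBP and ATF factors, was searched on both strands. It was found in 3.97% of all 32851 windows, in 25% of the 20 windows of the amino acid response genes and in 6.45% of the 62 windows of the transporter genes. Among the transporter genes it occurred at Slc7a11, Slc7a7 and Slc6a21, and in none of the 20 windows of genes above background; Slc7a5 and Slc1a5 are among the genes without a window. At Slc7a11 there were 2 matches on opposite strands, which start 66 and 47 bases before the start and lie 11 bases apart. The stretches at Slc7a11 (chr3:50443628-50443704, minus strand), Asns (chr6:7693210-7693257, minus strand) and Chac1 (chr2:119351024-119351081, plus strand) are shown, with the motif in capitals, because Asns and Chac1 were called lower in all 3 treated groups, as was Slc7a11 at its background level. The matches at Asns and Chac1 begin 23 and 193 bases before the start. The other response genes with a match were Nupr1, Trib3 and Vldlr. Nupr1 and Trib3 were also called lower in all 3 treated groups, but Vldlr was called higher in OXP and STS+OXP. Whether the motif goes with the direction of change was not tested.
Slc7a11: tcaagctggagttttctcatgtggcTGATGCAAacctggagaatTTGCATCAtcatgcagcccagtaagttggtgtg
Asns: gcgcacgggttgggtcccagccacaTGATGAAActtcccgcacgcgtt
Chac1: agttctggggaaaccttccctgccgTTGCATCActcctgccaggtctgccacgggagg

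The motif CACGTG, an E-box bound by TFEB and other factors, was found in 7.15% of all windows and in 12.9% of the windows of the transporter genes, at Slc36a1, Slc38a7, Slc43a1 and 5 genes at background. Slc38a7 and Slc43a1 were not called against CTR, and whether this motif goes with the direction of change was not tested. The stretch at Slc36a1, the lysosomal carrier that rose, is shown (chr11:55204284-55204339, plus strand); the match in capitals begins 31 bases before the start, and a second match, which runs past the start and is not shown whole, begins 3 bases before it.
Slc36a1: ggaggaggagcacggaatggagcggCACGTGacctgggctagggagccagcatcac
The motif TGACNNNGC, the core of antioxidant response elements, was found in 12.4% of all windows and in 16.1% of those of the transporter genes, at Slc6a9, Slc7a1, Slc7a6, Slc36a1, Slc38a2 and Slc43a1 and, at background, Slc6a13 and Slc36a1os. Of the 20 windows of genes above background 8 held it (40%), as against 3 for CACGTG (15%). Those 8 windows belong to 6 of 14 genes. The same site at Slc7a6 was counted in overlapping windows, and the match at Slc36a1 lies after the start. The share over all windows was not limited to genes above background, so that it is no like measure for the 40%. A match describes the letters and not binding, and the absence of one says only that these letters are not in the window.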

How the data were processed

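Members, gene lists and naming rules were chosen with earlier results of these data known. The authors labelled RNA for Affymetrix mouse expression arrays and deposited their signals as log2 values from RMA (background correction, quantile normalization and 1 summary value per probe set), made in R 3.02 per the submitters' processing notes. Signals of single probes were not used here. Of 45141 probe sets, 28898 had 1 gene symbol, 551 several, 15588 none and 104 were controls; only the first kind was used. limma 3.58.1 in R 4.3.3 fitted the 4 group means to all 12 arrays (8 residual and 5.05 prior degrees of freedom), two-sided, with 6 comparisons; it was tested on simulated data. Named were the members above background that were called against CTR, 6 members fixed by name (Slc1a5, Slc3a2, Slc7a5, Slc7a11, Slc38a2 and Slc38a9), those called in the interaction, and up to 3 genes of each other list by the largest change; Slc38a7 and Slc38a10 and the list members given without full values were named after their values were seen. The background rule called for the highest control set without a mouse target; the set of 25 G or C bases, with group means of 5.14 to 5.61, was left out after the data were seen, and with it 45 rather than 35 members were at background. The 10 members called against CTR and above background exceeded even that level in at least 2 groups. Settings tried were median centring, cyclic loess, averaged or specific probe sets, only genes above background, eBayes with trend and robust, array weights, only the arrays compared, a replicate block, arrays left out, and the unequal-variance test of the paper's methods. Genes of the 7 families without a single-symbol probe set, such as Slc1a4, and protein sequences were not analysed here.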

Additional observations from a re-analysis of the deposited data

Results flagged for a closer look

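The interaction term in limma, the STS effect with OXP minus that without, was called for 4 genes above background and for Slc7a11. For Slc6a9 the interaction was 1.36 (adjusted p = 0.00235), from a log2 fold change of -0.81 without OXP and 0.55 with it. For Slc7a5 it was 1.26 (adjusted p = 0.0112), from -0.61 and 0.64, and for Slc7a1 it was 0.90 (adjusted p = 0.00932), from -0.56 and 0.33. For Slc7a11, at background in all groups, the term was a difference of 0.63 between signals that are bounds, which gives no size of change (adjusted p = 0.0183, and 0.0572 without OXP replicates 1 and 2). For Slc38a6 it was -0.93 (adjusted p = 0.0308), from 0.81 and -0.12, and with all probe sets averaged it was -0.40 and not called (adjusted p = 0.18). Without OXP replicate 2 the interactions were 1.63 for Slc6a9, 1.54 for Slc7a5, 1.08 for Slc7a1 and -1.12 for Slc38a6, and these 4 were called.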

How the results depend on the processing

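For 13 named genes in 6 comparisons, 1691 values under other settings held no change of direction among called values; 1572 kept their side of the threshold, 69 lost a call and 50 gained one. For STS against CTR, 5 lower genes became 9 with only the arrays compared. The methods' test gave 1 higher and 2 lower there (4 and 8 unadjusted, beside 23.9% of all genes unadjusted). For OXP against CTR the methods' test gave 0 higher and 1 lower (3 and 6 unadjusted, beside 25% of all genes unadjusted). For STS+OXP against CTR the higher genes became 5 with only genes above background or only the arrays compared and 7 with array weights. Counts without OXP replicates 1 and 2, which leave 1 OXP array, are not given. For STS+OXP against STS, array weights gave 12 higher and 7 lower genes, and only the arrays compared gave 10 higher. The interaction was lower for 0 genes with averaged probe sets. Leaving out 1 array at a time gave 2 to 3 higher and 2 to 7 lower genes in STS, 2 to 5 and 6 to 8 in OXP, and 2 to 5 and 6 to 7 in STS+OXP. It gave 0 to 5 higher and 0 to 0 lower genes for STS+OXP against OXP, with 5 without OXP replicate 2, then 4 to 8 and 4 to 4 against STS and 3 to 5 and 0 to 2 for the interaction. The share of all genes called moved too, and in STS it was 16.5% with all arrays, 20.6% without OXP replicate 1 and 18.7% without OXP replicate 2. For most settings that share is not given, so that these counts do not set the members apart from all genes. The cause was not tested. Against the median of the control sets, 1 gene was at background in all groups. Whether the replicate numbers pair cultures is not stated. Of 18 correlations between arrays of the same number, 1 exceeded 0.1 (range -0.20 to 0.10). These do not settle it, since arrays of different numbers were not set beside them. With the replicate number as a block, 3 higher and 5 lower genes were called in STS, 4 and 7 in OXP and 3 and 6 in STS+OXP. STS+OXP then gave 0 and 0 against OXP and 5 and 4 against STS, and the interaction gave 4 and 1.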
